A study of Mus musculus with 18 samples.

Results

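The wild-type mouse ventricle was compared between 6 and 10 weeks of age in 6 RNA sequencing libraries out of 18 in the series. The 6 were chosen by their labelled genotype and age, 3 libraries labelled WT at 6 weeks and 3 labelled WT at 10 weeks. All 18 libraries came from total RNA of frozen mid wall of the left ventricle of male mice with the strain label 129SVE background, and no treatment was labelled. The other 12 were 3 libraries of WT at 3 weeks and 3 libraries each at 3, 6 and 10 weeks labelled MLP KO (knockout of muscle LIM protein, the product of Csrp3), called KO-labelled below because Csrp3 counts were not lower there. Each age was its own set of samples, and the labels do not say whether the 3 replicates of a group came from separate animals, so p-values measure only the spread between these samples. Age cannot be told apart from any other property that the 3 libraries of an age share, such as litter, day or hour of collection, none of which the labels give. The comparison follows how the healthy ventricle changed over the weeks in which the knockout line, a model of dilated cardiomyopathy, becomes ill, and it separates gradual change from genes that went between absence and expression.

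Between weaning and adulthood the mouse ventricle completes its postnatal growth. Cardiomyocytes have largely left the cell cycle and grow in size, ATP supply rests on mitochondrial oxidation of fatty acids, and genes of the contractile filaments and of calcium cycling settle at adult levels. The tissue also holds fibroblasts, endothelium, mural cells and immune cells, and many of its transcripts follow the circadian clock and circulating glucocorticoids.

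Library totals ran from 19118774 to 23001047 counts at 6 weeks and from 17859293 to 20026389 at 10 weeks. Expression is in CPM, which relates each gene's count to the TMM-adjusted total of its library. Cardiomyocyte markers were abundant in all 6 libraries, with the alpha myosin heavy chain Myh6 at 32210 to 46039 CPM. The ventricular light chain Myl2 had 5630 to 8539 CPM, whereas the atrial genes Myl4, Myl7 and Sln stayed at or under 21.2, 17.0 and 5.66 CPM. Mitochondrially encoded genes took 12.03% ± 1.10 of counts at 6 weeks and 14.1% ± 0.846 at 10 weeks (SD, n = 3; two-sided exact permutation test, p = 0.2, where the smallest p that 3 against 3 allows is 0.1). Across genes, log2 CPM correlated at 0.990 to 0.993 between replicates of an age and at 0.979 to 0.985 between ages.

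Csrp3, the gene that the label says was knocked out, was counted in all 18 libraries. WT libraries had 951 to 1111 CPM at 3 weeks, 1486, 1230 and 1392 CPM at 6 weeks and 1001, 1124 and 1018 CPM at 10 weeks. Libraries labelled KO had 1134, 2703 and 1510 CPM at 3 weeks, 2483, 1821 and 1792 CPM at 6 weeks and 2777, 3416 and 1501 CPM at 10 weeks. The means were 1782, 2032 and 2565 CPM, above the WT means of 1022, 1369 and 1048 CPM, so the counts go against the label. They cover the whole gene, and the labels do not say which part was deleted, so they do not show whether protein was made. Every statement on these 9 libraries is therefore by label. Between 6 and 10 weeks Csrp3 was at -0.39 (SE 0.29, adjusted p = 0.48) on the log2 scale in WT. Of the alternatives run, edgeR with no filter on low counts and both fits of only the 6 libraries called it lower (adjusted p down to 0.023). The other 11 did not.

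Of 15778 genes tested with edgeR's quasi-likelihood test, 1383 (8.77%) passed an adjusted p of 0.05 (Benjamini-Hochberg) and are the genes called here. At 10 weeks 575 were higher (3.64%) and 808 lower (5.12%). In 34.1% of all genes the 3 values of 1 age lay clear of the 3 of the other. Most of the called changes were small: 1020 of them (73.8%) were under 2-fold, 293 were between 2-fold and 8-fold, and 70 (0.444% of genes tested) exceeded 8-fold. Changes over 2-fold were thus called in 2.3% of genes tested. Within those 70, 9 met the rule for a switch, which asked for at most 0.1 CPM in every library of the lower group and at least 1 CPM in every library of the higher group, and 61 were large steps outside that rule. Direction was uneven in the larger sizes, with 23 of the 70 genes higher and 47 lower at 10 weeks.

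**Figure D1:**
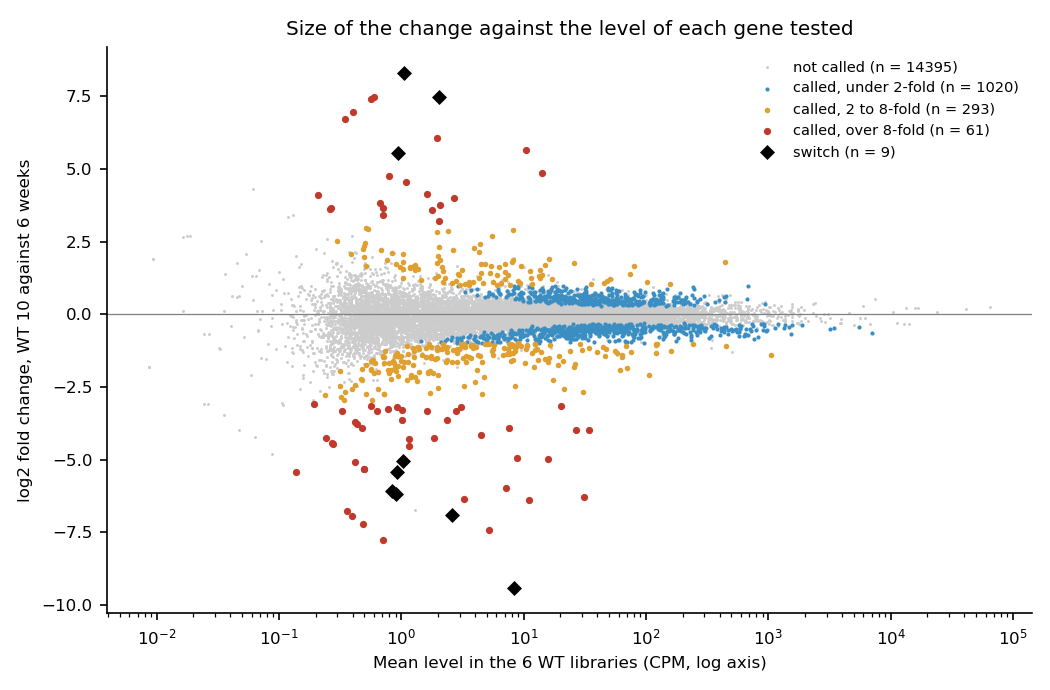
Log2 fold change of WT 10 against 6 weeks (vertical axis) against the mean level over the 6 WT libraries in CPM (horizontal log axis) for all 15778 genes tested. Changes under 2-fold (1020 genes, blue) lie mostly among abundant genes, while the 61 large steps (red) and 9 switch genes (black diamonds) lie apart from the main cloud and mostly at low levels.

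The classes differed in what kind of gene they held. Changes under 2-fold were in protein-coding genes for 97.1% and in annotated pseudogenes for 1.37%, where all genes tested had 87.5% and 2.95%. Among the 61 large steps 14 were pseudogenes (23%) and 29 were protein-coding (47.5%), and among the 9 switch genes 4 were pseudogenes and 4 protein-coding. The median level in the higher group was 43.0 CPM for changes under 2-fold, 4.46 CPM for changes of 2-fold to 8-fold, 1.68 CPM for large steps and 2.01 CPM for switch genes. These shares describe classes cut on the size of the same contrast, and a pseudogene can share reads with its near-identical parent gene, so single values of such genes are uncertain.

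The stability of the counts also differed between sizes. With 1 library left out in turn, the total fell to 555 without 6-week replicate 1, to 754 without 6-week replicate 3, to 722, 742 and 762 without 10-week replicates 1, 2 and 3, and to 1185 without 6-week replicate 2. The number of called genes over 8-fold stayed between 73 and 77 in those 6 fits, which shared 63 to 66 of the 70 genes with the full fit. That number moved more with the filter and the libraries fitted. It was 96 with no filter on low counts, 54 with at least 1 CPM in 3 libraries and 59 with only the 6 libraries. For the switch rule a library left out asks for less, so the 9 switch genes had to meet it again and genes could only be added. Without 6-week replicate 3 the rule took in 15 genes.

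Switch genes with a curated symbol numbered 4. Ptprn2 encodes a receptor-type tyrosine phosphatase of secretory granules, known from neuroendocrine cells, and Gabrg3 encodes the gamma 3 subunit of the GABA-A receptor, an inhibitory chloride channel; both were present at 6 weeks and nearly absent at 10. Capn11, a calpain protease known from testis, and Guca1b, a guanylate cyclase activating protein of photoreceptors, were nearly absent at 6 weeks and present at 10. The promoter windows that RefSeq gives for 3 of them on GRCm38.p6, from 250 bases before to 50 after the annotated start, are shown because they hold the annotated starts of genes that went between near absence and expression. They are the C57BL/6J reference, which the 129SVE mice may not match. They read 5′ to 3′ on the gene's strand, with matches to 3 promoter motifs in capitals.

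Ptprn2 (chr12:116485470-116485769, plus strand): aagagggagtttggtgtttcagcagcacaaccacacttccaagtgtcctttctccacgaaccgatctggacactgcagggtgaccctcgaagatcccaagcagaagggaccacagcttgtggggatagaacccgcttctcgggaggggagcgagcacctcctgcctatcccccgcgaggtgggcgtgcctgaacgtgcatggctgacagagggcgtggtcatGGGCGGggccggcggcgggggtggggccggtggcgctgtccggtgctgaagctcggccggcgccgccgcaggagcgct

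Gabrg3 (chr7:57387166-57387465, minus strand): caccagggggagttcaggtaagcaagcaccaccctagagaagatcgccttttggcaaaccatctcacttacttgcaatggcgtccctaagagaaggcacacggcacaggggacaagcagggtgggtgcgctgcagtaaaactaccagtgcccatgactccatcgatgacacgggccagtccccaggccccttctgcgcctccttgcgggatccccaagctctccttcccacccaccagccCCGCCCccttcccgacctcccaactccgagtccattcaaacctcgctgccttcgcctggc

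Capn11 (chr17:45659260-45659559, minus strand): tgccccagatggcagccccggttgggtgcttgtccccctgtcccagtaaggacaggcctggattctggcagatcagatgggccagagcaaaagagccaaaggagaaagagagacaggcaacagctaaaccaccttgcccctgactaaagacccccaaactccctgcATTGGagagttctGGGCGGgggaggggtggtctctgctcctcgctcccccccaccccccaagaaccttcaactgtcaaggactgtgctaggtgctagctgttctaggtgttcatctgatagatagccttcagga

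The motifs searched on both strands were the TATA box (TATAAA), the CCAAT box (CCAAT) and the GC box (GGGCGG), none of which overlaps another. Ptprn2 holds a GC box at base 223 of its window and Gabrg3 at base 241, and Capn11 holds a CCAAT box at base 167 and a GC box at base 180. Of 32851 mouse promoter windows of this length, 13.6% hold the TATA letters, 37.4% the CCAAT letters and 35.7% the GC box letters, so such matches are common.

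Ptprn2 (chromosome 12, 116485720 to 117276849, plus strand) had 17.1, 15.6 and 17.5 CPM at 6 weeks and 0.0493, 0 and 0 CPM at 10 weeks. It had 9.11 CPM ± 1.51 at 3 weeks. A total of 1 count over the 10-week group faced 1009 at 6 weeks, a ratio of 921 with an exact 95% interval of 165 to 36398 that covers counting error only, and the adjusted p was 1.6e-10. In KO-labelled hearts the gene was low at every age, at 0.102, 0.109 and 0.401 CPM at 3, 6 and 10 weeks, and the change from 6 to 10 weeks there was 1.81 on the log2 scale (SE 0.69, adjusted p = 0.088).

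Gabrg3 (chromosome 7, 56716465 to 57387188, minus strand) was likewise lower at 10 weeks than at 6 in WT and low in every KO-labelled group, from a lower start. It had 2.14, 1.37 and 1.47 CPM at 6 weeks and 0, 0.056 and 0 CPM at 10 weeks, with 1.63 CPM ± 0.814 at 3 weeks. The KO-labelled groups had 0.0916, 0.175 and 0.106 CPM at 3, 6 and 10 weeks. The fall in WT had an adjusted p of 0.00013, and 1 count against 99 gave a ratio of 90.3 (exact 95% interval 15.8 to 3603).

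Capn11 (chromosome 17, 45630204 to 45659325, minus strand) was close to absent in 5 of the 6 groups. At 6 weeks it had 0, 0.0427 and 0 CPM and at 10 weeks 2.86, 6.05 and 3.31 CPM (adjusted p = 4.8e-06). The ratio was 244 (exact 95% interval 43.4 to 9696), from 1 count against 223. WT at 3 weeks had 0.0535 CPM, and KO-labelled hearts had 0.0187, 0.0185 and 0 CPM at 3, 6 and 10 weeks.

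Guca1b (chromosome 17, 47385393 to 47392967, plus strand) had no count in any WT library at 3 or 6 weeks and 1.82, 2.13 and 2.38 CPM at 10 weeks. It was at least 42.7-fold higher at 10 weeks, taking 3 counts over the whole 6-week group as the limit that a count of 0 allows (adjusted p = 0.00017). In KO-labelled hearts a count appeared in 1 of the 9 libraries. The 3 WT libraries at 10 weeks were thus the only ones of the 18 with more than 0.0971 CPM of Capn11 or 0.0438 CPM of Guca1b.

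The other 5 switch genes are predicted loci or pseudogenes and were named after their values were seen. Gm14150 (5.17 CPM ± 0.781 to 0.0358 CPM ± 0.0313), Rbpj-ps3 (1.81 ± 0.580 to 0.0329 ± 0.0569), Gm12312 (1.80 ± 0.265 to 0.0187 ± 0.0323) and Gm10704 (2.01 ± 0.731 to 0.0545 ± 0.00459) were processed pseudogenes that fell between 6 and 10 weeks, with adjusted p of 5.8e-08, 4.5e-05, 1.3e-06 and 7.0e-06. Gm45640 went the other way, from 0.0326 CPM ± 0.0289 to 1.84 CPM ± 0.273 (adjusted p = 4.8e-06).

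Where the KO-labelled groups stood divided these genes. Ptprn2, Gabrg3, Gm14150 and Rbpj-ps3 were low in all 9 KO-labelled libraries, at most 0.584 CPM, nearer to WT at 10 weeks than at 6 weeks. They were not as low as there: none kept to 0.1 CPM in every library of a KO-labelled group. Ptprn2 had 0.401 CPM in KO-labelled hearts at 10 weeks against 0.0164 CPM in WT. Gm12312 and Gm10704 were present in all 9 KO-labelled libraries, at 1.15 CPM or more, as in WT at 3 and 6 weeks. Gm45640 was present in all 9 KO-labelled libraries as well, at 1.96 CPM or more, but there it matched WT at 10 weeks. None of the 9 switch genes was called between 6 and 10 weeks in KO-labelled hearts, where edgeR called 12.7% of all genes. Guca1b had no count in those libraries and Capn11 at most 0.0554 CPM, so neither could be called there. With so few genes against a share of 12.7%, the lack of calls decides nothing. At an unadjusted p under 0.05 in edgeR, 2 of the 9 passed.

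**Figure D2:**
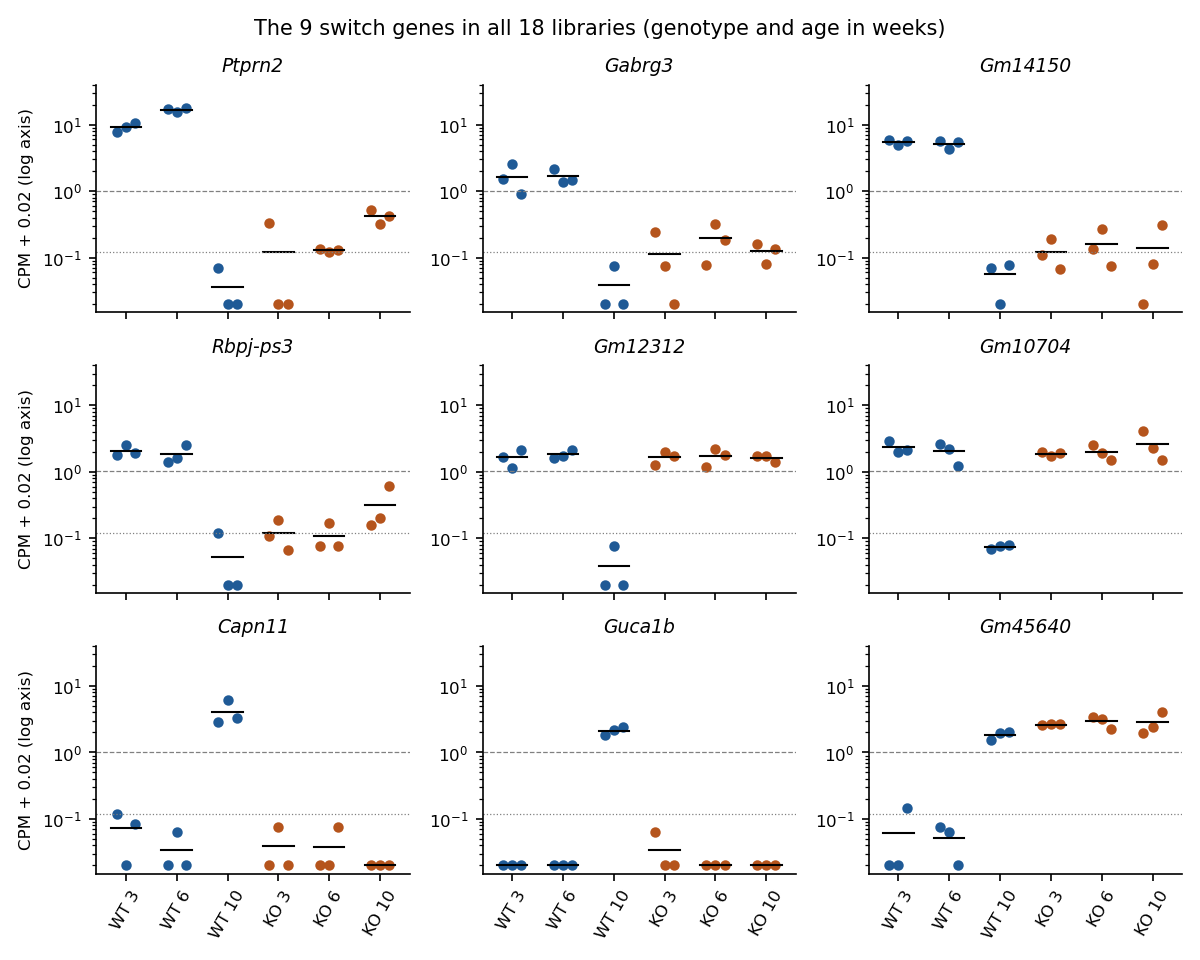
CPM plus 0.02 on a log axis for the 9 switch genes in all 18 libraries, by genotype and age in weeks, WT in blue and KO-labelled in orange. Points are libraries, short black bars are means of 3, and the dotted and dashed lines mark 0.1 and 1 CPM; WT at 10 weeks stands apart from WT at 3 and 6 weeks in every panel.

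The rule turned on a narrow margin for several genes. The lowest switch gene of the higher groups was Gm10704, whose lowest 6-week library had 1.21 CPM. Just outside the rule, among genes named after their values were seen, Gm42047 had 0.105 CPM in its highest low library against 2.32 CPM in its lowest high library, Rpl15-ps2 had 0.116 against 4.96 CPM, and Hist1h2al had 0.112 against 9.56 CPM. Cyp1a1, the aryl hydrocarbon receptor target that oxidises polycyclic compounds, had no count at 6 weeks but 0.639 CPM in its lowest 10-week library. With limits of 0.05 and 0.5 CPM 12 genes met the rule and with 0.2 and 2 CPM 6 did, each sharing 3 genes with the 9. With group means in place of every library, a looser rule that the 9 had to meet, 21 did.

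Outside the switch rule, and leaving aside predicted loci, pseudogenes and genes under 2 CPM in the higher group, the 10 largest decreases were led by Kcnj14, which encodes an inward rectifier potassium channel. Kcnj14 had 61.8, 63.0 and 61.1 CPM at 6 weeks and 0.592, 0.784 and 1.05 CPM at 10 weeks (log2 -6.27, SE 0.33, adjusted p = 4.3e-10). It had 39.0 CPM ± 5.78 in WT at 3 weeks and 1.84, 9.91 and 9.12 CPM in KO-labelled hearts at 3, 6 and 10 weeks, all between the WT extremes. Pygl, the liver isoform of glycogen phosphorylase, had 80.7, 50.9 and 62.1 CPM at 6 weeks and 4.29, 4.20 and 3.84 CPM at 10 weeks (log2 -3.97, SE 0.22, adjusted p = 1.6e-10), with 73.4 CPM at 3 weeks and 5.78 to 7.32 CPM in the KO-labelled groups.

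Ush1c encodes harmonin, a scaffold protein of sensory hair bundles. It had 36.3, 34.2 and 38.9 CPM at 6 weeks and 3.45, 4.54 and 4.24 CPM at 10 weeks (log2 -3.16, SE 0.17, adjusted p = 4.3e-11), and its KO-labelled means of 14.8 to 18.4 CPM lay between. Ush1c overlaps the predicted locus Gm9860, named after its values were seen, which fell with it from 14.4 to 0.959 CPM, and without the strand setting of the counting, reads of overlapping genes cannot be told apart. Selenbp2, a selenium-binding protein gene, was at 4.35 CPM ± 0.370 and then 0.343 CPM ± 0.00655, Vwc2, a secreted antagonist of bone morphogenetic proteins, at 2.21 ± 0.213 and 0.104 ± 0.081, and Cep83os, a long noncoding RNA, at 5.07 ± 1.55 and 0.499 ± 0.125. Their log2 changes were -3.64 (SE 0.32), -4.28 (SE 0.89) and -3.31 (SE 0.41), and all 3 were low in every KO-labelled group, with means of at most 0.934 CPM.

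Of the 10, Tpm3-rs7 and Hmga1b are near-identical copies of other genes, as their symbols tell. Neither the rest of the 10 nor the 10 largest increases were searched for such copies. Tpm3-rs7, a tropomyosin 3 related sequence, had 14.95, 17.5 and 18.9 CPM at 6 weeks and 0.937, 0.168 and 0.523 CPM at 10 weeks (log2 -4.93, SE 0.30, adjusted p = 2.2e-10). Hmga1b, a copy of the gene for a chromatin protein with AT hooks, had 9.07, 7.65 and 8.92 CPM and then 0.493, 0.280 and 0.639 CPM (log2 -4.16, SE 0.24, adjusted p = 1.6e-10). Their KO-labelled levels went opposite ways: Tpm3-rs7 was under 1.03 CPM in every KO-labelled library and Hmga1b at 5.99 CPM or more. Adcy1, a calcium-stimulated adenylyl cyclase, and Tent5b, a noncanonical poly(A) polymerase, were at -2.73 (SE 0.64, adjusted p = 0.018) and -2.70 (SE 0.69, adjusted p = 0.0275) on the log2 scale. Adcy1 lost its call without 6-week replicate 1 or any 10-week replicate (adjusted p up to 0.079) and Tent5b without any of the 6 (up to 0.103).

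Partner genes, looked up after these values were seen, did not all move with their copies. Tpm3 rose as Tpm3-rs7 fell, with 43.9 CPM ± 3.92 at 6 weeks and 61.7 CPM ± 3.65 at 10 weeks (log2 0.49, SE 0.11, adjusted p = 0.0065), and the sum of both was 61.0 CPM ± 5.60 at 6 weeks and 62.2 CPM ± 4.03 at 10 weeks. Hmga1 had 28.7 CPM ± 1.63 and 46.0 CPM ± 3.81, and with Hmga1b the sum was 37.2 CPM ± 2.35 and 46.5 CPM ± 3.77. Rbpj, the transcription factor of Notch signalling, had 11.8 CPM ± 1.11 at 6 weeks and 22.5 CPM ± 2.29 at 10 weeks, with 14.0 CPM in WT at 3 weeks and 26.01, 25.8 and 23.7 CPM in KO-labelled hearts. Rpl15, a ribosomal protein gene, had 135 CPM ± 22.2 and 128 CPM ± 6.37 while Rpl15-ps2 went from 6.48 CPM ± 1.48 to 0.0738 CPM ± 0.0368. How the counting treated reads that fit both copies was not stated in the labels or headers.

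Under the same limits the 10 largest increases were led by Eps8l1, which encodes a relative of the actin regulator EPS8. Eps8l1 had 0.660, 0.171 and 0.420 CPM at 6 weeks and 25.4, 14.1 and 22.5 CPM at 10 weeks (log2 5.66, SE 0.43, adjusted p = 2.3e-08), and its mean was at most 0.662 CPM in each of the other groups. Hrasls, a phospholipase and acyltransferase gene, had 1.04, 0.897 and 0.840 CPM and then 24.8, 23.9 and 32.8 CPM (log2 4.87, SE 0.26, adjusted p = 3.6e-11). It rose in KO-labelled hearts too, from 5.998 to 9.52 CPM (log2 0.66, SE 0.22, adjusted p = 0.047). The netrin receptor gene Unc5a went from 0.0810 CPM ± 0.0788 to 2.09 CPM ± 0.414, and Cnmd, which encodes the cartilage glycoprotein chondromodulin, from 0.317 CPM ± 0.169 to 5.11 CPM ± 0.881.

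Of the other increases, 3 belong to interferon-induced or antigen-presenting families. Gbp10, a guanylate-binding protein, rose by log2 3.22 (SE 0.55), the interferon-induced GTPase Tgtp2 by 2.31 (SE 0.31), and H2-Q6, a nonclassical class I histocompatibility gene, by 2.71 (SE 0.54). H2-Q6 was higher still in KO-labelled hearts, at 39.2 CPM at 6 weeks and 31.1 CPM at 10 weeks, against 9.65 CPM in WT at 10 weeks. Rnf157, an E3 ubiquitin ligase gene, rose from 1.37 CPM ± 0.483 to 7.51 CPM ± 0.302, and Prss55, a serine protease known from testis, from 0.582 CPM ± 0.272 to 4.28 CPM ± 3.35. Fosb, an immediate early transcription factor, had 1.92, 6.94 and 10.6 CPM at 10 weeks and kept its call only without 10-week replicate 1 (adjusted p up to 0.175 in the other 5).

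Read across the other groups, the 70 genes over 8-fold separated WT at 10 weeks from the younger WT hearts and divided the KO-labelled hearts. On a log2 scale, WT at 3 weeks lay nearer to WT at 6 weeks than to WT at 10 weeks for 69 of the 70. KO-labelled hearts at 3, 6 and 10 weeks lay nearer to WT at 6 weeks for 39, 37 and 36 and nearer to WT at 10 weeks for 31, 33 and 34. In KO-labelled hearts between 6 and 10 weeks 0 of 9 switch genes and 6 of 61 large steps (9.84%) were called, where 12.7% of all genes were (6.52% higher and 6.14% lower). Both classes hold genes with no or almost no KO-labelled counts, such as Guca1b and Cyp1a1, which could not be called there. By name, after their values were seen, Gbp10, Hrasls, Ighg2c and Tsix moved the same way in KO-labelled hearts, and Gm18666 and BC018473 the opposite way.

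**Figure D3:**
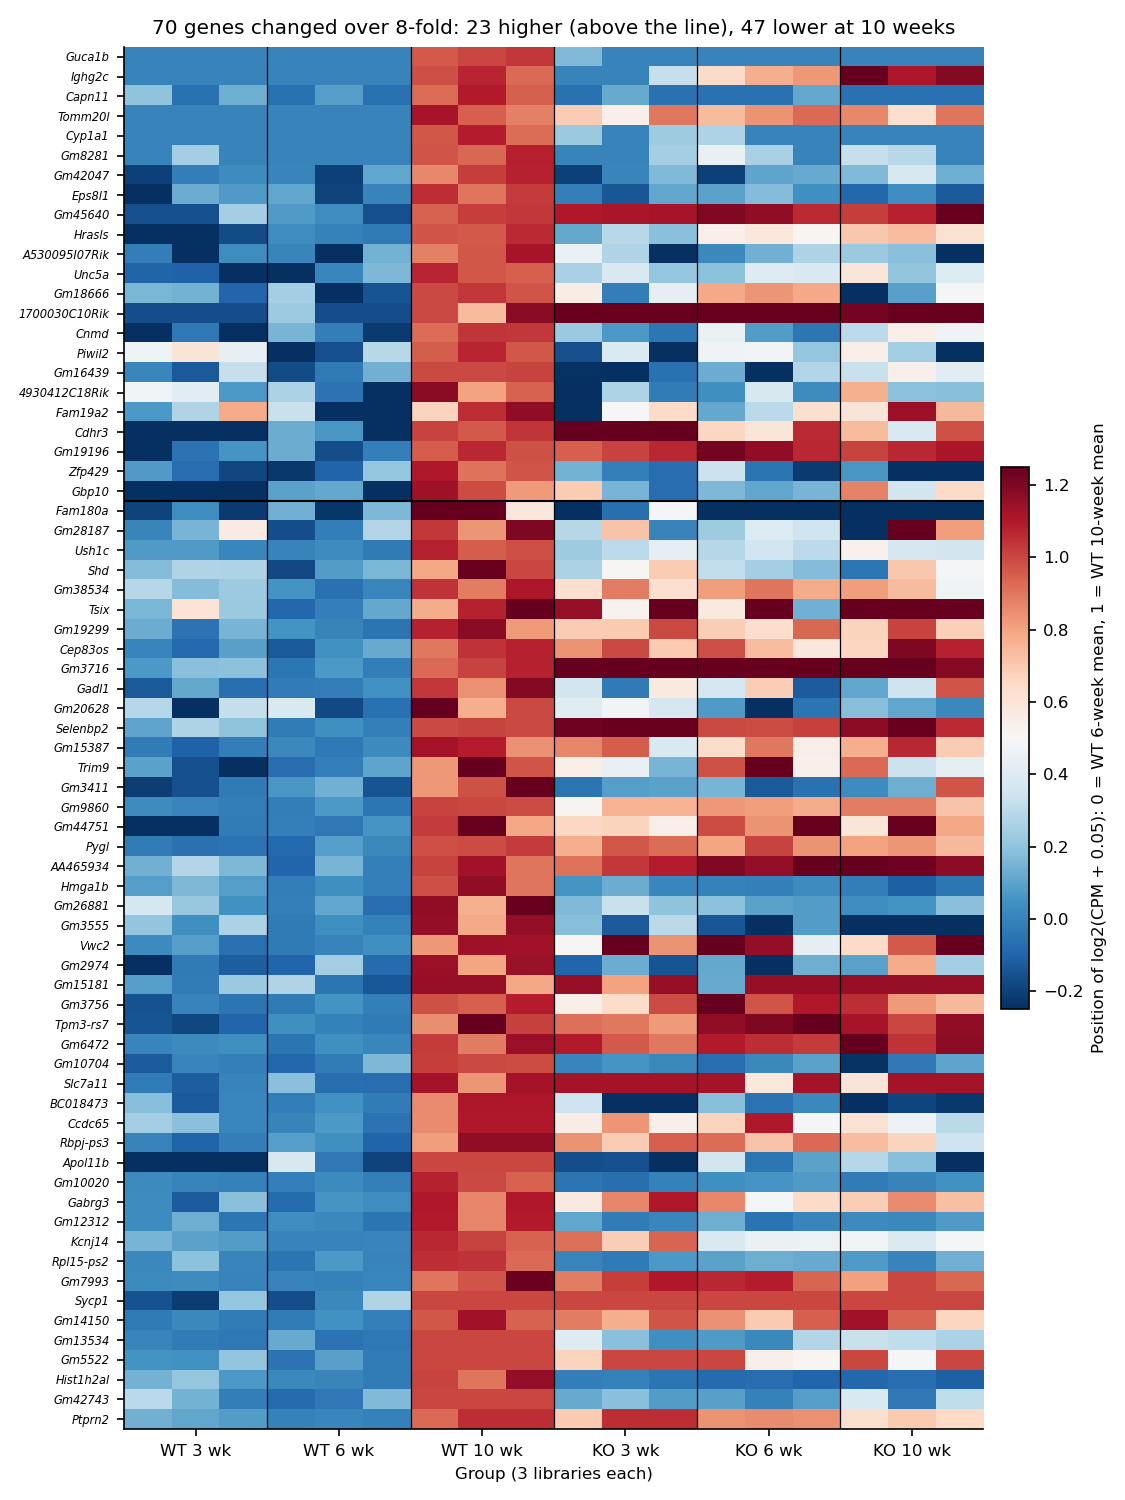
The 70 genes changed over 8-fold (rows) in all 18 libraries (columns, 3 per group), with log2(CPM + 0.05) placed on a scale where 0 is the WT 6-week mean and 1 the WT 10-week mean. WT at 3 weeks has the colour of WT at 6 weeks in nearly every row, whereas the KO-labelled libraries match WT at 6 weeks in some rows and WT at 10 weeks in others, at all 3 ages.

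The 70 genes were spread over most chromosomes. Chromosome 12 held 8 of them among 519 genes tested (1.54%) and chromosome 14 held 7 of 529 (1.32%), against 0.444% of all genes, and chromosomes 18 and 19 held 0. Within 500 kb of each other lay 4 pairs, some members of which are named after their values were seen, all of which fell together: Pygl and Trim9, 13.1 kb apart on chromosome 12, Kcnj14 and Ush1c, 370.6 kb apart on chromosome 7, and the overlapping pairs Ush1c with Gm9860 and Gm20628 with Gm42743. Trim9, a brain ubiquitin ligase gene, was at 0.792 CPM and then 0.0522 CPM.

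The calls in KO-labelled hearts are given here by size class, and the classes also differ in level. Of the 1020 changes under 2-fold, 201 (19.7%) were called in KO-labelled hearts between 6 and 10 weeks, 169 in the same direction and 32 in the opposite one. Of the 293 changes between 2-fold and 8-fold 63 were (21.5%), 40 the same way and 23 the opposite way. Over all sizes 270 genes were called in both genotypes, 19.5% of the WT calls and 13.5% of the KO-labelled calls, and 213 of them moved the same way. The test of the difference between the genotypes called 908 genes (5.75% of those tested, 3.12% with a higher and 2.63% with a lower value in KO-labelled hearts), among them 228 of the 1020, 113 of the 293, 43 of the 61 and 7 of the 9, but it contains the WT change by which these classes were cut.

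The 3-week hearts show how far a change had begun earlier, as a description, since the 6-week values enter both steps. Of the 456 small increases 213 (46.7%) had a 3-week mean below the 6-week mean and 234 had one between the 6-week and 10-week means. Of the 564 small decreases 123 (21.8%) continued a fall from 3 weeks and 388 (68.8%) had a 3-week mean between the other two. Over all genes tested the share that continued its direction was 42.8% of those higher and 39.7% of those lower at 10 weeks. Most small decreases therefore left 6-week means that were the highest of the 3 WT ages.

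The 8 small increases with the lowest adjusted p were chosen among genes at 20 CPM or more in both groups. Hmgb1, an abundant chromatin protein also released as a danger signal, had 68.1, 61.3 and 60.7 CPM at 6 weeks and 115, 110 and 117 CPM at 10 weeks (log2 0.85, SE 0.09, adjusted p = 2.7e-06). Ndrg4, a cytosolic protein enriched in heart and brain, had 167, 157 and 170 CPM and then 298, 316 and 344 CPM (log2 0.95, SE 0.12). In KO-labelled hearts at 6 weeks Hmgb1 was at 111 CPM and Ndrg4 at 397 CPM, and neither was called there between 6 and 10 weeks. Vwa8, a mitochondrial ATPase, rose from 173 to 317 CPM, the adaptor subunit Ap4s1 from 22.4 to 41.2 CPM, Ccdc91, of vesicle trafficking, from 23.7 to 41.6 CPM, and Patl1, of mRNA decay, from 24.4 to 40.5 CPM.

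P4ha1 and Grip2 went with age in both genotypes, but not alike. P4ha1, the collagen prolyl hydroxylase subunit, had 39.6, 43.9 and 43.7 CPM at 6 weeks and 73.1, 74.0 and 74.8 CPM at 10 weeks, and its log2 change was 0.80 (SE 0.12) in WT and 0.80 (SE 0.12) in KO-labelled hearts. Grip2, a scaffold for glutamate receptors, had 41.2, 38.5 and 45.4 CPM and then 79.6, 65.5 and 75.5 CPM, a rise of 0.82 (SE 0.13). In KO-labelled hearts it fell by 1.27 on the log2 scale (SE 0.13, adjusted p = 7.1e-06), from 34.7 to 14.4 CPM, and the difference between the genotypes was called (-2.09, SE 0.19, adjusted p = 2.5e-07).

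The 8 small decreases with the lowest adjusted p were chosen in the same way. Cirbp, the cold-inducible RNA-binding protein, had 77.0, 77.6 and 74.9 CPM at 6 weeks and 38.8, 43.7 and 40.6 CPM at 10 weeks (log2 -0.90, SE 0.12, adjusted p = 3.4e-05), and it fell in KO-labelled hearts too (-0.39, SE 0.12, adjusted p = 0.032). Sparc, a collagen-binding matricellular protein, had 695, 704 and 756 CPM and then 490, 394 and 414 CPM (log2 -0.73, SE 0.11), and fell by 0.89 (SE 0.11) in KO-labelled hearts. Pgam2, the muscle phosphoglycerate mutase of glycolysis, fell from 847 to 514 CPM and Ckb, the brain-type creatine kinase, from 65.8 to 34.7 CPM. The kinases Pim3 and Camk1 fell from 115 to 65.2 and from 102 to 68.3 CPM, the spliceosomal cyclophilin Ppil1 from 73.2 to 38.9 CPM, and Nkiras1, a regulator of NF-kappaB inhibitors, from 59.6 to 35.8 CPM. All 16 of these genes kept their calls under each of the 14 alternatives run, with adjusted p up to 0.0080.

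**Figure D4:**
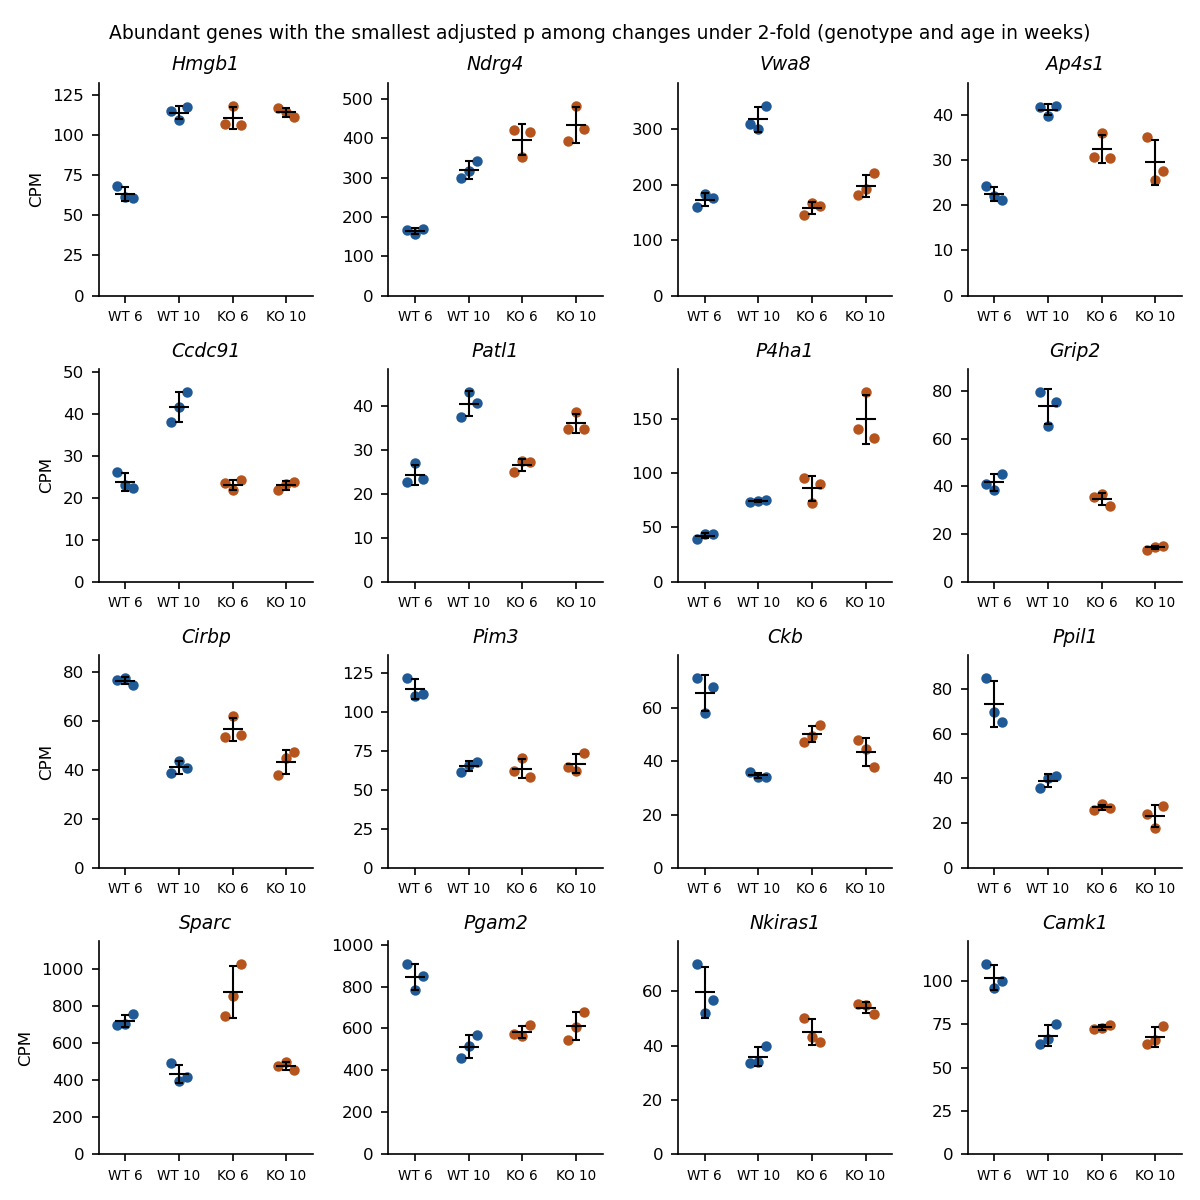
CPM of the 16 abundant genes with the smallest adjusted p among changes under 2-fold, 8 higher and 8 lower at 10 weeks, in WT (blue) and KO-labelled (orange) at 6 and 10 weeks. Points are libraries and black marks are means with SD (n = 3); the 3 WT values at 6 weeks and the 3 at 10 weeks do not overlap in any panel, and Grip2 moves in opposite directions in WT and KO-labelled.

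The lists of sarcomere, calcium handling and ion channel genes had medians near 0 with a few large movers. Of 30 sarcomere and Z-disc genes 0 rose and 4 fell (13.3% called, median log2 0.02). Over all genes, against which the list counts here are to be read, 3.64% rose and 5.12% fell in WT (median -0.01), and 6.52% rose and 6.14% fell in KO-labelled hearts. Tcap, the titin cap of the Z-disc, had 1628, 1328 and 1644 CPM at 6 weeks and 475, 587 and 699 CPM at 10 weeks (log2 -1.39, SE 0.20, adjusted p = 0.00035), and Myom2, an M-band protein, fell from 1877 to 1162 CPM. In KO-labelled hearts 9 of the 30 rose (6.52% of all genes) and 0 fell. Without 6-week replicate 2, 7 of the 30 were called in WT. Of 27 calcium handling genes 0 rose and 5 fell (median -0.07), led by Cacna1g, the T-type calcium channel of young hearts, with 83.0, 103 and 103 CPM and then 23.7, 29.5 and 24.3 CPM (log2 -1.90, SE 0.20, adjusted p = 6.5e-06). Cacna1g fell in KO-labelled hearts as well, by 1.39 (SE 0.19). The inositol trisphosphate receptor gene Itpr2 fell from 32.4 to 20.5 CPM. Of the 27, 2 were called without 6-week replicate 1 and 3 without 10-week replicate 1.

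Of 30 ion channel and gap junction genes 1 rose and 4 fell, Kcnj14 among them. Kcnj11, the pore of the ATP-sensitive potassium channel, had 98.1, 106 and 104 CPM at 6 weeks and 190, 228 and 221 CPM at 10 weeks (log2 1.05, SE 0.17, adjusted p = 0.00051). Kcnj11 and Kcnj14 were also the 2 called among 13 inward rectifier genes. Among 17 receptor-type phosphatases 3 fell, Ptprn2 among them, and among 12 tropomyosin and troponin genes 1 rose and 2 fell (median -0.29). Of the phosphatases 1 was called without 6-week replicate 2 or 3 or 10-week replicate 2 or 3, and of the tropomyosin and troponin genes 5 were without 6-week replicate 2.

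Among the lists examined, that of the respiratory chain had the most members lower. Of 46 nuclear oxidative phosphorylation genes 0 rose and 20 fell (43.5%, against 5.12% of all genes; median -0.31), whereas in KO-labelled hearts edgeR called 0 of 46, with 8 at an unadjusted p under 0.05. Ndufa2, a complex I subunit, had 371, 224 and 285 CPM at 6 weeks and 163, 167 and 188 CPM at 10 weeks (log2 -0.76, SE 0.14, adjusted p = 0.0022), and Cox8b, the muscle isoform of a cytochrome oxidase subunit, had 1397, 788 and 946 CPM and then 577, 613 and 640 CPM (log2 -0.77, SE 0.17). The highest of the 6 values of both was 6-week replicate 1. Without that library 1 of the 46 was called, and 9, 2, 3 and 11 were without 6-week replicate 3 and 10-week replicates 1, 2 and 3. With 6-week replicate 2 left out 24 were. Of the 13 mitochondrially encoded mRNAs, edgeR, DESeq2 and limma voom called 0 and 1 had an unadjusted p under 0.05 in edgeR (median 0.22). With no filter on low counts and in both fits of only the 6 libraries, 1 was called.

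Genes of fuel use are given by pathway. Of 21 PPAR-responsive lipid genes 7 rose and 0 fell (median 0.26): Plin2, a lipid droplet coat protein, rose from 55.5 to 85.0 CPM (log2 0.61, SE 0.12) and the thioesterase Acot1 from 11.8 to 39.99 CPM (1.77, SE 0.31), while its near-identical neighbour Acot2 went from 59.3 to 101 CPM. Whichever of the 6 libraries was left out, 2 to 4 of the 21 were called. Of 33 fatty acid uptake and oxidation genes 5 rose and 2 fell, and 2 to 4 were called whichever library was left out. Of 20 citrate cycle genes edgeR, DESeq2 and limma voom called 0, with 4 at an unadjusted p under 0.05 in edgeR. At most 1 was called under the other settings. Of 18 genes of branched-chain amino acid breakdown 3 fell and 0 rose, and the same number fell without any 1 library. Bcat2, the mitochondrial branched-chain aminotransferase, had 235, 210 and 233 CPM at 6 weeks and 85.6, 96.03 and 99.5 CPM at 10 weeks (log2 -1.27, SE 0.12, adjusted p = 3.8e-07), and Ppm1k, the phosphatase that activates the next enzyme, fell from 91.7 to 34.8 CPM. Of 26 glycolysis and glucose uptake genes 3 rose and 5 fell, with Pgam1 rising from 31.2 to 49.98 CPM as Pgam2 fell. Without 6-week replicate 1 or 3, or 10-week replicate 1, 2 or 3, 2 to 5 of these 26 were called.

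Of 40 interferon-induced genes tested 16 rose and 0 fell (40%, against 3.64% of all genes; median 0.59), and 9 to 15 did with 1 library left out, with 9 without 10-week replicate 1 and 10 without 6-week replicate 2. Rsad2, the antiviral enzyme viperin, had 4.51, 4.36 and 4.98 CPM at 6 weeks and 16.7, 15.01 and 11.7 CPM at 10 weeks (log2 1.65, SE 0.18, adjusted p = 2.7e-06), and the guanylate-binding protein gene Gbp6 rose from 7.58 to 19.01 CPM. In KO-labelled hearts 1 rose and 5 fell. Of 24 histocompatibility and antigen presentation genes 8 rose and 1 fell: the class I genes H2-K1 and H2-D1 rose from 88.9 to 143 and from 142 to 210 CPM, and H2-T24 fell from 16.6 to 8.52 CPM. Class I genes are near-identical to each other, so reads may be split between them. KO-labelled hearts had 13.6 and 12.8 CPM of Rsad2 at 6 and 10 weeks, against 14.47 CPM in WT at 10 weeks.

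Called growth and matrix genes were mostly lower at 10 weeks. Of 37 cell cycle genes 0 rose and 8 fell (median -0.64), among them the replication licensing genes Mcm2, from 16.2 to 8.93 CPM (log2 -0.86, SE 0.18), and Mcm3, from 11.9 to 6.66 CPM (-0.83, SE 0.16). Between 2 and 9 were called with 1 library left out, with 3, 3, 2 and 3 without 6-week replicates 1 and 3 and 10-week replicates 2 and 3. Of 45 extracellular matrix genes 2 rose and 7 fell (median -0.28), where in KO-labelled hearts 1 rose and 14 fell. Fbln1, an elastic fibre glycoprotein, rose from 84.9 to 143 CPM, and 3, 5 and 4 of the 45 were called without 6-week replicate 3 and 10-week replicates 2 and 3. In the growth hormone axis 1 of 16 rose (3.64% of all genes) and 2 fell (5.12%), with the binding protein Igfbp3 from 33.3 to 18.6 CPM, and 1 of the 16 was called without any library other than 6-week replicate 2. Of 16 imprinted growth genes edgeR, DESeq2 and limma voom called 0, with 4 at an unadjusted p under 0.05 in edgeR. Up to 3 were called with no filter on low counts or in the fits of only the 6 libraries.

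Called clock genes went in both directions. Of 19 tested 2 rose and 4 fell. The repressor Cry1 had 7.15, 8.25 and 4.77 CPM at 6 weeks and 27.1, 23.7 and 24.99 CPM at 10 weeks (log2 1.90, SE 0.19, adjusted p = 1.2e-06). The repressor nuclear receptors Nr1d1 and Nr1d2 fell, Nr1d1 from 87.8, 119 and 124 CPM to 30.2, 32.0 and 29.3 CPM (log2 -1.85, SE 0.25). In KO-labelled hearts Cry1 was at 7.81 and 11.6 CPM and Nr1d1 at 187 and 173 CPM at 6 and 10 weeks. The hour of collection was not given, so age and hour cannot be told apart here.

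Of 23 glucocorticoid-responsive genes tested 2 rose and 8 fell in WT (all genes 3.64% and 5.12%), and in KO-labelled hearts 9 rose and 1 fell (all genes 6.52% and 6.14%). Klf15, a metabolic transcription factor, had 59.8, 62.6 and 60.4 CPM at 6 weeks and 25.5, 34.7 and 24.3 CPM at 10 weeks (log2 -1.11, SE 0.14, adjusted p = 1.5e-05). The metallothionein Mt2 fell by 1.91 (SE 0.27) in WT and rose by 1.61 (SE 0.22) in KO-labelled hearts. The 2 that rose in WT were the kinase Sgk1, at 0.83 (SE 0.25) in WT and 0.70 (SE 0.25, adjusted p = 0.0816) in KO-labelled hearts, and the transcription factor Foxo1, at 0.48 (SE 0.13) in WT and -0.08 (SE 0.13, adjusted p = 0.736) in KO-labelled hearts. The test of the difference was called for 10 of the 23. In WT 5 of the 23 were called without 6-week replicate 1, 7 without 6-week replicate 2 and 6 without any of the other 4 libraries.

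Of 24 ATF4 and one-carbon stress genes 0 rose and 6 fell (median -0.43), among them the transcription factor Atf5, from 79.7 to 50.6 CPM, and the folate enzyme Aldh1l2, from 18.1 to 7.88 CPM. Atf5 rose in KO-labelled hearts (log2 0.49, SE 0.13, adjusted p = 0.014). Without 6-week replicate 1 or 10-week replicate 2, 3 of the 24 were called. Of 18 endoplasmic reticulum chaperone genes 3 rose, led by Dnajc3 from 29.6 to 66.3 CPM, and 1 was called without 6-week replicate 1 or 3 or 10-week replicate 2. Of 21 cytosolic heat shock genes 1 rose, the small heat shock protein Hspb6 from 456 to 897 CPM, where in KO-labelled hearts 17 did. The median log2 change of the 21 was 0.35 in WT and 0.66 in KO-labelled hearts, and the test of the difference called 1. More were called in WT with DESeq2, with no filter on low counts and in both fits of only the 6 libraries, up to 11. Of 23 foetal and stress genes 1 rose and of 24 immediate early genes 2 did, and with 1 library left out at most 1 and 2 of these were called. Under the other settings run, up to 10 of the 23 and up to 10 of the 24 were called. The atrial natriuretic peptide gene Nppa had 465, 418 and 467 CPM and then 235, 301 and 192 CPM (log2 -0.89, SE 0.31, adjusted p = 0.094). Nppa was called lower with no filter on low counts and in both fits of only the 6 libraries (edgeR, adjusted p down to 9.7e-12). In the other 11 alternatives it was not.

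Markers of other cell types moved in few genes. In bulk tissue, fewer cells of a type and less RNA per cell cannot be told apart. Fibroblast markers rose in 1 and fell in 1 of 14, endothelial markers in 1 and 1 of 15, and 1 of each was called without 5 of the 6 libraries. Mural, adipocyte and atrial markers were called in 0 of 13, 8 and 12 with edgeR, with 3, 1 and 1 at an unadjusted p under 0.05. DESeq2 called 1 mural marker and 0 of the others, and limma voom 0. Over all alternatives up to 3 mural, 0 adipocyte and 5 atrial markers were called. The atrial calls came with no filter on low counts and in both fits of only the 6 libraries. Macrophage markers fell in 3 of 15, with the complement gene C1qb from 43.7 to 29.2 CPM, and their summed level was 379 to 471 CPM at 6 weeks and 295 to 342 CPM at 10 weeks. Red cell markers did not overlap between the ages in 9 of 9 genes (34.1% of all genes) and were called lower in 3 of 9 (5.12% of all genes), with a summed level of 1153 to 1850 CPM at 6 weeks and 632 to 797 CPM at 10 weeks. Of macrophage markers 1 was called without 6-week or 10-week replicate 1, and of red cell markers 1 without 6-week replicate 1, 2 without 6-week replicate 2 and 0 without any of the other 4 libraries. DESeq2 called 6 of the 9 red cell markers and limma voom 2, and up to 8 were called under the settings run. In edgeR 7 of the 9 had an unadjusted p under 0.05. T and NK cell and neutrophil markers summed to at most 4.93 and 2.91 CPM. Neutrophil, B cell, Schwann cell, epicardial and skeletal muscle markers had 1 call each, all lower, and T and NK cell markers 0 of 3 with edgeR, DESeq2 and limma voom and at an unadjusted p under 0.05. Each of these single calls was lost without at least 1 library. The 3 neutrophil genes tested had a median log2 of 0.81 and the 5 skeletal muscle genes 0.18, against the direction of their calls. B cell, Schwann cell and epicardial markers had medians of -1.03, -0.32 and -0.64. The part of these cells in the other changes was not tested.

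**Figure D5:**
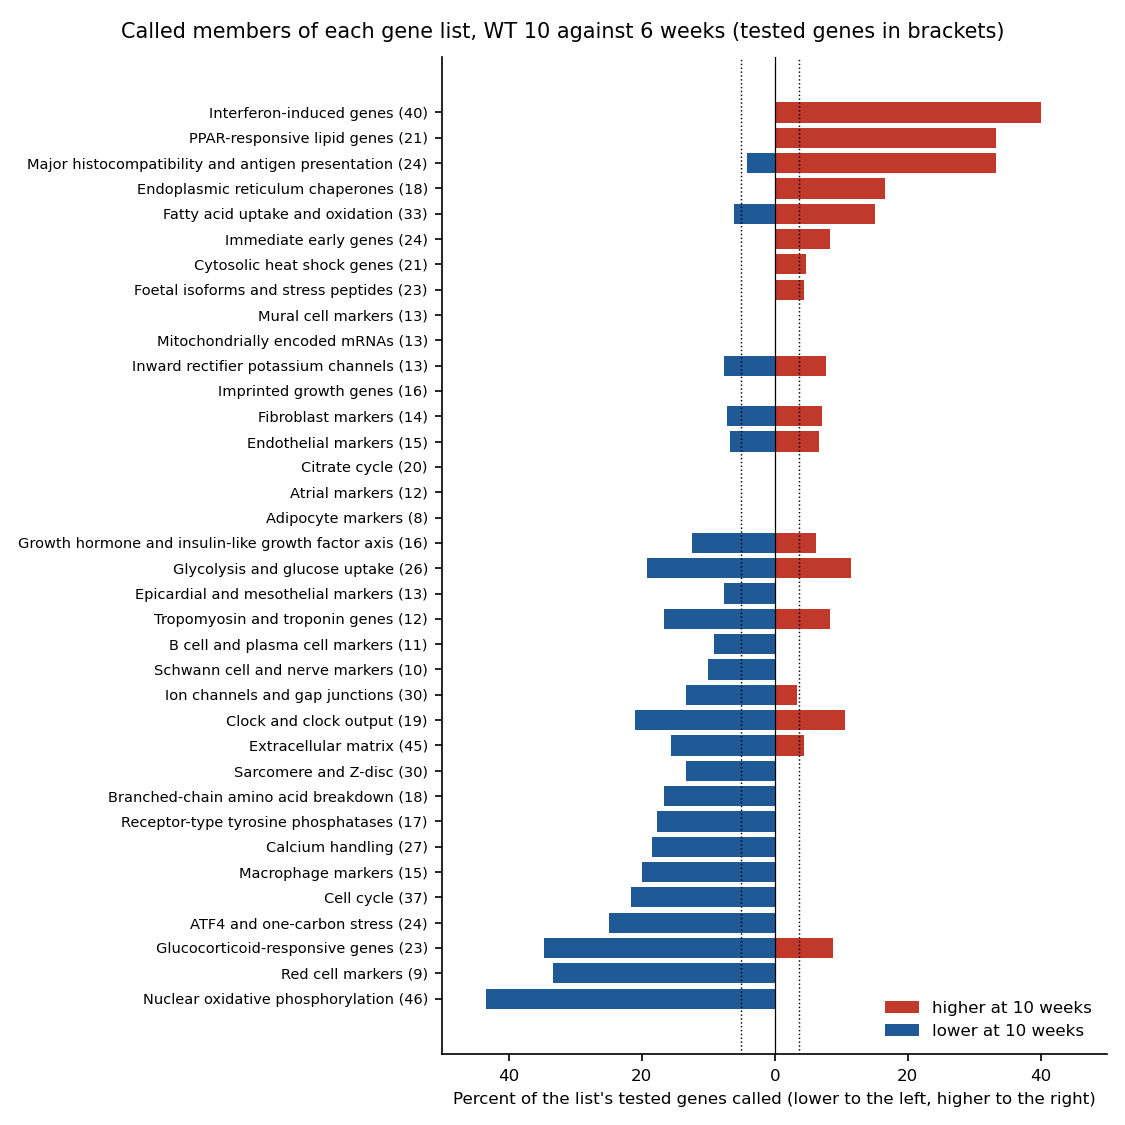
Share of each list's tested genes (number in brackets) called higher (red, to the right) or lower (blue, to the left) at 10 weeks in WT, for lists with at least 8 tested genes. Dotted lines mark the shares over all genes, 3.64% higher and 5.12% lower; interferon-induced genes stand out to the right and nuclear oxidative phosphorylation genes to the left.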

How the data were processed

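Total RNA of left ventricle was sequenced in 18 libraries, and the 6 WT libraries at 6 and 10 weeks are the subject here. The authors deposited raw counts per gene for each library, with gene coordinates of GRCm38; the submitters' processing notes name STAR 2.5.2b, Subread 1.5.2 with featureCounts and Trimmomatic 0.36. Strandedness, annotation release and the handling of reads that fit several genes are not given in the sources used here. Of 49315 gene identifiers 49056 matched GENCODE M21, which gave symbols and types.

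Counts were fitted in R 4.3.3 with edgeR 4.0.16 (TMM scaling, filterByExpr with a minimum count of 10 and total of 15, robust quasi-likelihood test) over all 18 libraries with 1 mean per group, and p-values were adjusted by Benjamini-Hochberg over 15778 genes. Alternatives used RLE scaling, DESeq2 1.42.0, limma 3.58.1 voom, other filters, only the 6 libraries, the replicate number as a block, and each library left out. The scripts were tested on simulated data. Intervals (95%, exact) and the limit of 3 counts cover counting error only. Correlations between same-numbered WT samples at 6 and 10 weeks showed no pairing by replicate number. The genes named were Csrp3, the switch genes, the 10 largest other called changes in each direction without overlap and with 2 CPM or more in the higher group, the 8 smallest adjusted p in each direction among changes under 2-fold at 20 CPM or more in both groups, and up to 2 called members of each list in each direction (the smallest p where none was called). Predicted loci and pseudogenes were otherwise only counted, with any other gene marked as chosen after its values were seen. The comparison, the classes and the gene lists were chosen with earlier results of these data known. Some genes that this rule selects are not reported here.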

Additional observations from a re-analysis of the deposited data

Results flagged for a closer look

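The age change differed between the labelled genotypes, by edgeR's test of the difference at an adjusted p under 0.05, for 61 of the 114 named genes. The genes had been chosen for their WT change, which is part of this difference, so the count is no independent support. In KO-labelled hearts 54 of the 61 were not called between 6 and 10 weeks, 6 were called in the opposite direction (Tent5b, Grip2, Slc2a1, Mt2, Atf5 and Aqp1) and 1 in the same direction (Hrasls). Groups of 3 were too small for the test of single outlying samples. All values below are the log2 age change in KO-labelled hearts minus that in WT.

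Among switch genes the difference was 11.21 for Ptprn2, 5.33 for Gabrg3, 6.71 for Gm14150, 5.45 for Gm10704, 7.12 for Rbpj-ps3, 6.09 for Gm12312 and -5.59 for Gm45640. For the largest other increases it was -6.65 for Eps8l1, -4.20 for Hrasls, -4.17 for Unc5a, -3.03 for Cnmd, -3.22 for Prss55, -3.05 for H2-Q6, -3.08 for Rnf157 and -2.16 for Tgtp2. For the largest other decreases it was 6.15 for Kcnj14, 5.78 for Tpm3-rs7, 4.42 for Hmga1b, 4.28 for Pygl, 2.94 for Selenbp2, 2.66 for Cep83os, 2.85 for Ush1c, 3.39 for Adcy1 and 5.77 for Tent5b.

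Among changes under 2-fold the difference was -0.80 for Hmgb1, -0.83 for Ndrg4, -0.55 for Vwa8, -1.01 for Ap4s1, -0.82 for Ccdc91 and -2.09 for Grip2, and 0.88 for Pim3, 0.71 for Ckb, 0.69 for Ppil1, 0.79 for Pgam2, 0.997 for Nkiras1 and 0.46 for Camk1. For contractile and metabolic genes it was 1.40 for Tcap, 0.97 for Myom2, 0.59 for Ckm, 0.75 for Tnnc1, 0.74 for Ndufa2, 0.52 for Echs1, 1.45 for Bcat2, 1.07 for Ppm1k, 2.11 for Slc2a1, -0.67 for Plin2 and -1.30 for Kcnj11.

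For regulatory, stress and immune genes it was 1.14 for Atf5, 1.24 for Aldh1l2, -1.33 for Cry1, 1.74 for Nr1d1, 1.22 for Klf15, 3.51 for Mt2, -0.99 for Dnajc3, -1.74 for Rsad2, -0.65 for H2-D1, -0.90 for H2-K1 and 0.90 for H2-T24. For genes of other cell types and the matrix it was 1.10 for Aqp1, -0.81 for Fbln1 and -2.03 for Lamc3.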

How the results depend on the processing

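The 1383 calls between 6 and 10 weeks in WT became 2463 when only the 6 libraries were fitted and 2249 when the replicate block was added to that fit. The difference between the genotypes gave 908 calls, 1478 with DESeq2 and 1550 with no filter on low counts. With group means in place of every library, which loosens the switch rule, 21 genes met it. The cause was not tested. With 1 library left out in turn the WT count ran from 555 to 1185 and the KO-labelled count from 983 to 2634. That of the difference ran from 460 to 1598, and genes over 8-fold from 73 to 77. Switch genes ran from 10 to 15, where a library left out can only add to the 9. The gain in the mitochondrial share of counts ran from 1.54 to 2.63 percentage points. With the replicate block in all 18 libraries 1329, 1911 and 844 genes were called in WT hearts, KO-labelled hearts and their difference. With group means subtracted, same-numbered WT samples at 6 and 10 weeks correlated at -0.043, 0.011 and 0.001, which shows no pairing by number. A batch shared by number was not tested, and the block is a hint from the data at most. Over the 114 named genes and all settings, 1428 of 1588 values kept direction and side of the threshold, 142 lost the call, 18 gained it and 0 reversed. Depth limits the lower side of switch genes, where 1 to 3 counts decide a ratio.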
